A study of Saccharomyces cerevisiae with 4 samples.

Results

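Mitochondrial ribosomal protein genes were taken as the genes whose spots carry a symbol, on the array platform or in the current reference gene table, of MRPL, MRPS or RSM followed by a number. This gave 53 genes with 106 spots among the 5539 named genes on the array, 33 of the large subunit (MRPL) and 20 of the small subunit (MRPS and RSM). The choice used names alone and no measured value. All 4 arrays compared RNA of slt2-deleted Saccharomyces cerevisiae, background BY4741, with RNA of the same strain. One side of each comparison came from cells kept for 4 h in rich medium (YEPD) at 24 °C with Congo red at 30 µg/ml, a dye that binds wall chitin, and the other from untreated cells of the divided culture. Both sides lack the SLT2 kinase of the cell wall integrity pathway, so no array measures the response of wild-type cells. Treated RNA was in channel 2 on arrays 1 and 3 and in channel 1 on arrays 2 and 4.

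The mitochondrial ribosome translates the few messages of mitochondrial DNA, nearly all of which encode membrane subunits of the respiratory chain and ATP synthase. Its own proteins, with the exception of Var1, are encoded in the nucleus, made in the cytosol and imported. The small subunit reads the message, and the large subunit joins the amino acids. Some of the proteins have counterparts in bacterial ribosomes, and others are found only in mitochondria. Yeast in glucose medium represses respiration in part, and mitochondrial ribosomal protein genes are known as a group whose transcripts often change together and separately from those of the cytosolic ribosome.

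Values are log2 ratios of Congo red over untreated RNA, centred on the median of each array and set to a common sign, with spots of a gene averaged. Unless another form is named, a mean is over 4 arrays with its SD (n = 4). The direction is likely only: it rests on channel 2 as the numerator, which the labels do not state, and every sign would turn together if it were channel 1. Had the submitters already turned their ratios to a common sign, the turned means would instead follow channel order. Nothing says that the arrays came from separate cultures, so the p-values reflect array-to-array variation that could be technical alone. In a whole culture, fewer cells with a transcript and less of it in each cell cannot be told apart. No channel's own signal was analysed, so the spots of SLT2 and of the strain's auxotrophic markers cannot check the labels. Array 1 gave the fewest usable spots, 84.1% of 12800 against 87.3% to 90.9% on the other arrays, and its paired spots differed most.

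As a family the mitochondrial ribosomal protein genes stayed close to the middle of all genes. Of the 53, 48 had a value on all 4 arrays (90.6%, against 80.9% of all genes) and were tested. Their median mean log2 ratio was -0.11, beside 0.02 over the 4481 genes tested. The interquartile range of these genes ran from -0.33 to 0.24, and that of all genes from -0.30 to 0.37. By array the family median was 0.03 on array 1, -0.14 on array 2, -0.15 on array 3 and -0.11 on array 4. The median of all 4481 genes was 0.07, -0.03, -0.02 and 0.02 on the same arrays, so the family median lay below it on each array, also on array 1, where both were above 0. The median of the gene means was -0.18 over 50 genes without array 1, -0.0038 over 48 without array 2 and between -0.09 and -0.06 without array 3 or 4, and with the deposited values uncentred it was -0.03 beside 0.11 for all genes.

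None of the 48 passed an adjusted p of 0.05 (limma, Benjamini-Hochberg over all genes), where 0% of all genes passed. At an unadjusted p under 0.05 (limma), 8 lay lower and 0 higher. Over all genes 14.4% were lower and 13.1% higher by that rule. On 4 of 4 arrays 11 of the 48 lay below 0 (22.9%), where 21.3% of all genes did, so the lower count was near the background. Only 4 lay above 0 on 4 of 4 arrays (8.33%, against 20.4% of all genes), namely MRPL6, MRPL7, MRPL16 and MRPL40, all of the large subunit. The remaining 33 changed sign between arrays. Without array 1, 19 of 50 lay below 0 (38%, against 27.2% of all genes) and 8 above 0 (16%, against 27.5%) on the 3 arrays left.

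**Figure D1:**
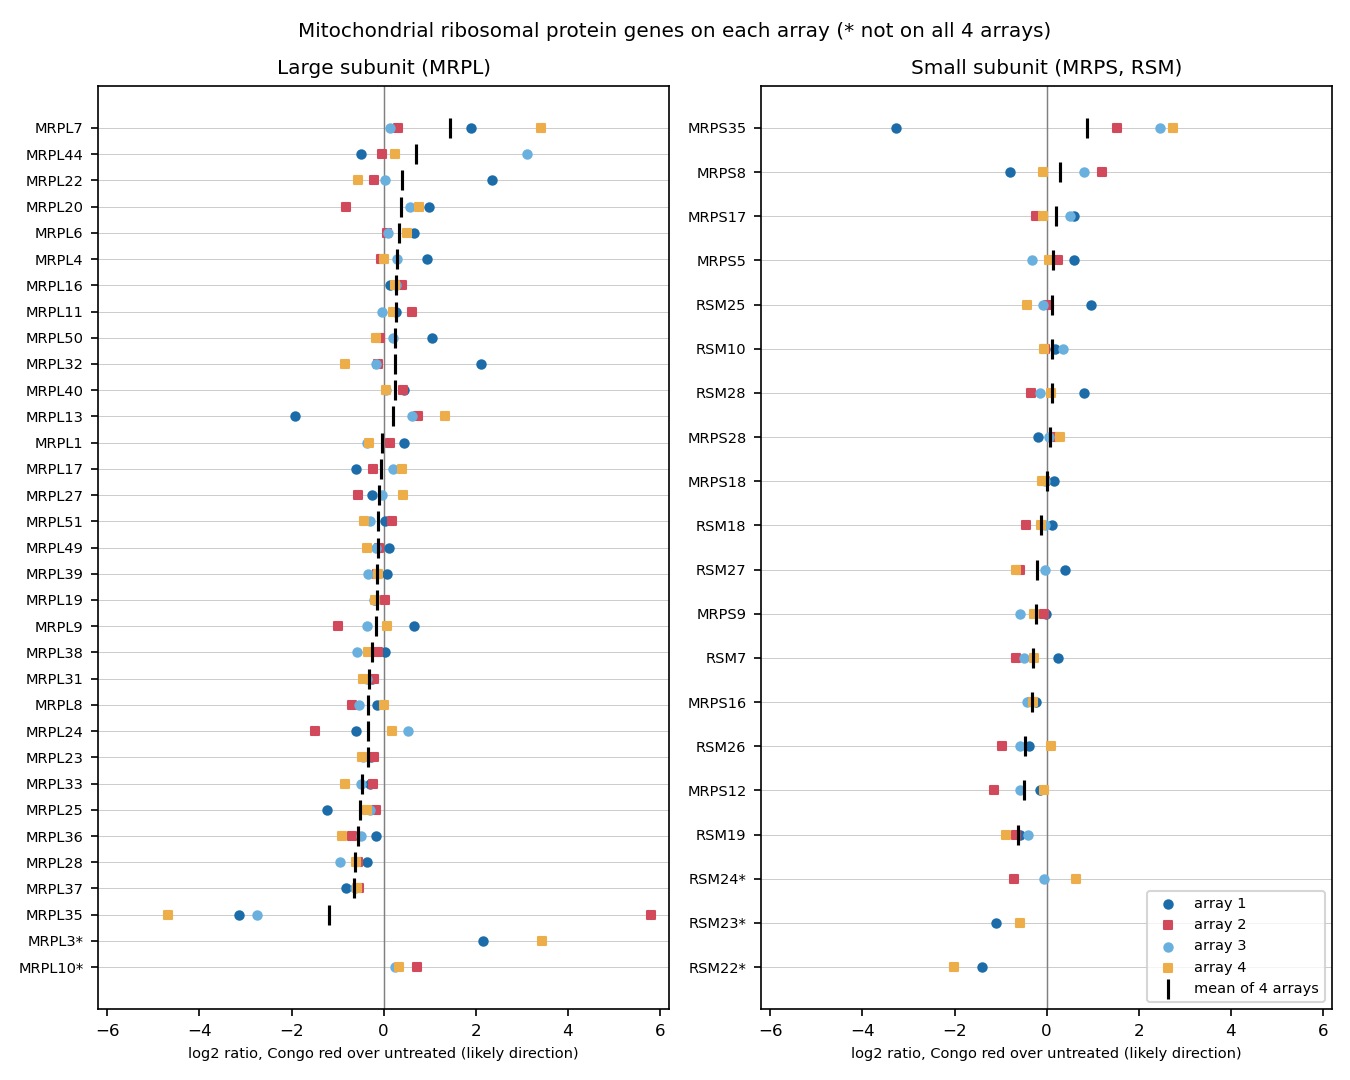
Log2 ratio of each mitochondrial ribosomal protein gene on each array (x axis, centred and set to a common sign), with the mean of 4 arrays as a black bar, for the large subunit on the left and the small subunit on the right; circles are arrays 1 and 3 and squares arrays 2 and 4. Most genes keep within 1 log2 unit of 0, while MRPL35, MRPS35, MRPL7, MRPL44 and MRPL3 have at least 1 array beyond 3.

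A second analysis, which an earlier look at these data had introduced after its counts were known, kept an array's value only where both adjacent spots of a gene were measured and lay within 1 log2 unit. It tested 2804 genes, 31 of them mitochondrial ribosomal, and called 16.8% of them in either direction. It is named the duplicate-spot analysis here. Here 4 of the 31 fell (12.9%, against 11.5% of all genes called lower) and 0 rose (against 5.31% of all genes called higher). The count that fell is therefore near the background. At an unadjusted p under 0.05 (limma) there were 11 lower (35.5%, against 22.3% of all genes) and 0 higher (against 12.6%).

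The 4 that fell were MRPL37, RSM19, MRPL28 and MRPL36. MRPL37, a large-subunit protein found only in mitochondria, gave -0.81, -0.54, -0.62 and -0.57 on arrays 1 to 4. It lay below 0 on every array with a narrow spread. Its mean was -0.64 ± 0.12, or 0.644-fold (adjusted p = 0.0173, limma, duplicate-spot analysis; 0.0716 with all genes on 4 arrays).

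RSM19 has a counterpart in the bacterial small subunit. It gave -0.57, -0.66, -0.41 and -0.88 on arrays 1 to 4, below 0 on each. The mean was -0.63 ± 0.20, or 0.645-fold (adjusted p = 0.0214, limma, duplicate-spot analysis). In the R64 gene table its nearest protein-coding neighbour on chromosome XIV is MRPS12, on the same strand, and the pair are the sole neighbours among the 53. MRPS12 encodes the relative of a bacterial protein of the decoding centre. It gave -0.14, -1.14, -0.59 and -0.06, also below 0 on each array but unequal in size, with a mean of -0.48 ± 0.49, and did not pass (adjusted p = 0.115, limma, duplicate-spot analysis).

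MRPL28, found only in mitochondria, gave -0.36, -0.56, -0.96 and -0.60. Array 3 was lowest and array 1 highest, and all lay below 0. Its mean was -0.62 ± 0.25, or 0.650-fold (adjusted p = 0.0266, limma, duplicate-spot analysis).

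MRPL36, with a bacterial counterpart, gave -0.15, -0.68, -0.49 and -0.91. Arrays 2 and 4 were lower than arrays 1 and 3. The mean was -0.56 ± 0.32, or 0.680-fold (adjusted p = 0.0440, limma, duplicate-spot analysis).

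These 4 calls depend on the arrays used. Without array 1 the same 4 passed. Without array 2, MRPL37 passed alone among them (-0.67, adjusted p = 0.0417, limma), beside MRPL20, which rose (0.78 ± 0.21, n = 3, adjusted p = 0.0313). Without array 3 or array 4, 0 mitochondrial ribosomal genes passed, as did 0 of all genes, with 5 of 32 and 7 of 31 family members at an unadjusted p under 0.05 (15.6% and 22.6%, against 25.2% and 29.9% of all genes, limma). As each array was left out, the mean of MRPL37 lay between -0.67 and -0.58, that of RSM19 between -0.71 and -0.55, that of MRPL28 between -0.71 and -0.51 and that of MRPL36 between -0.69 and -0.44. The mean of MRPL36 thus moved most, and its lowest size came without array 4. Once the dependence on gene length had been taken out, none of the 4 passed (MRPL37 at -0.20, RSM19 at -0.16, MRPL28 at -0.29 and MRPL36 at -0.28, adjusted p from 0.168 to 0.386, limma).

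Among the other large-subunit genes with the lowest means, MRPL25 and MRPL33 did not pass in either analysis, and MRPL35 did not pass with all genes and was not tested with duplicate spots. MRPL25, a mitochondria-specific protein, gave -1.22, -0.16, -0.29 and -0.36, so that array 1 set much of its mean of -0.51 ± 0.48. MRPL33, with a bacterial counterpart, gave -0.30, -0.23, -0.49 and -0.84, below 0 on every array, with a mean of -0.47 ± 0.27 (adjusted p = 0.145, limma). MRPL23 (-0.35 ± 0.13) and MRPL31 (-0.31 ± 0.11) were also below 0 on 4 of 4 arrays with small spreads and did not pass (adjusted p = 0.160 and 0.177, limma), and MRPL31 turned to 0.05 with duplicate spots and the length trend removed.

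MRPL35 had the lowest mean of the family and the least agreement between arrays. It gave -3.13, 5.81, -2.75 and -4.69, so array 2 stood opposite to the others. The value on array 2 came from 1 spot, as did that on array 1, while both spots were measured on arrays 3 and 4. Its mean of -1.19 ± 4.74 says little (adjusted p = 0.700, limma), and without array 2 it was -3.52 (n = 3, adjusted p = 0.138, limma).

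At the upper end of the large subunit stood MRPL7, MRPL44, MRPL22, MRPL20, MRPL6 and MRPL4, none of which passed with all 4 arrays. MRPL7, whose bacterial counterpart contacts the small subunit, gave 1.91, 0.31, 0.14 and 3.42. Arrays 1 and 4 were high, with a single spot behind array 4, and the mean was 1.44 ± 1.54 (adjusted p = 0.207, limma). MRPL44, a mitochondria-specific protein, gave -0.50, -0.03, 3.12 and 0.25, with 1 spot behind the 3.12 on array 3. Without array 3 its mean turned from 0.71 to -0.09.

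MRPL22, whose bacterial counterpart lines the exit tunnel, gave 2.36, -0.20, 0.04 and -0.57, so that array 1 alone was high. Without array 1 its mean turned from 0.41 ± 1.33 to -0.25. MRPL20, a mitochondria-specific protein, gave 0.99, -0.82, 0.57 and 0.78, with array 2 opposite to the others. Its mean was 0.38 ± 0.82 with all 4 arrays.

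MRPL6 and MRPL16, both with bacterial counterparts, lay above 0 on each array with smaller spreads than MRPL7. MRPL6 gave 0.65, 0.07, 0.09 and 0.50, with a mean of 0.33 ± 0.29. After removal of the length trend in the duplicate-spot analysis it was the one family member called, and it was higher (0.54, adjusted p = 0.0474, limma). There 1 of 31 was called higher against 4.68% of all genes, and 0 lower against 3.07%. MRPL16 gave 0.15, 0.41, 0.26 and 0.25, with a mean of 0.27 ± 0.11, and did not pass (adjusted p = 0.224 with all genes and 0.159 in the duplicate-spot analysis, limma). MRPL4, with a bacterial counterpart, gave 0.94, -0.05, 0.28 and 0.01, and its mean of 0.29 ± 0.45 rested mostly on array 1. Its paired spots there had opposite signs, at -0.86 and 2.74.

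In the small subunit, MRPS16, RSM26, RSM7 and MRPS9 followed RSM19 and MRPS12 at the lower end. MRPS16, with a bacterial counterpart, had the smallest spread of the family: it gave -0.23, -0.32, -0.44 and -0.30. The mean was -0.32 ± 0.08 (adjusted p = 0.164 with all genes and 0.0972 in the duplicate-spot analysis, limma). RSM26, related to manganese superoxide dismutase, gave -0.39, -0.98, -0.58 and 0.10. RSM7, with a bacterial counterpart, gave 0.24, -0.67, -0.49 and -0.28. For both genes 1 array lay above 0, array 4 for RSM26 and array 1 for RSM7. MRPS9, also with a bacterial counterpart, gave -0.018, -0.056, -0.587 and -0.265, with a mean of -0.23 ± 0.26. It was below 0 on 4 of 4 arrays but near 0 on arrays 1 and 2, where its paired spots had opposite signs.

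At the upper end of the small subunit were MRPS35, MRPS8, MRPS17, MRPS5, RSM25 and RSM10. MRPS35, a mitochondria-specific protein, gave -3.28, 1.52, 2.47 and 2.75. Array 1 was opposite to the others, both of its spots were far below 0 there (-3.92 and -2.64), and arrays 3 and 4 had 1 spot each. Its mean was 0.87 ± 2.81 (adjusted p = 0.635, limma), and without array 1 it was 2.25. MRPS8, with a bacterial counterpart, gave -0.79, 1.21, 0.80 and -0.08, so that its arrays split evenly about 0.

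MRPS17, MRPS5, RSM25 and RSM10 had means between 0.11 and 0.20. MRPS17 gave 0.59, -0.23, 0.52 and -0.08, high on arrays 1 and 3 and low on arrays 2 and 4. Its difference by channel order, 0.71, had the smallest p of the family (unadjusted p = 0.0507, limma with channel order as a second coefficient). By that coefficient 0 of 48 passed at an unadjusted p under 0.05, against 4.06% of all genes.

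The other 24 genes on 4 arrays had means between -0.35 (MRPL23) and 0.27 (MRPL16), none past the threshold. Among them MRPS18, a small-subunit protein with a bacterial counterpart, lay at 0.17, -0.03, -0.03 and -0.11, the mean nearest to 0 of the family. MRPL13 and MRPL32 had SDs over 1 in this middle range. MRPL13, a mitochondria-specific protein, had array 1 at -1.92 from 1 spot, against 0.61 to 1.34 on the others. MRPL32, known in yeast as a substrate that the m-AAA protease matures, had array 1 at 2.11 from spots at 0.54 and 3.68, against -0.85 to -0.12 on the others.

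The 5 genes not measured on every array were left out of the tests. MRPL10 lay above 0 on its 3 arrays (0.73, 0.25 and 0.33 on arrays 2 to 4). RSM24 gave -0.72, -0.05 and 0.64 on the same arrays, without a common sign. The other genes were measured on arrays 1 and 4 alone. MRPL3, related to ribonuclease III, gave 2.15 from 1 spot on array 1, and 3.43 on array 4 from spots far apart, at 1.90 and 4.96. RSM22, a methyltransferase-like assembly protein, gave -1.41 and -2.02. RSM23, related to a mammalian death-associated protein, gave -1.09 and -0.58, with 1 spot behind the value on array 4. With all genes on at least 3 arrays, where 50 of the 53 were tested, none passed.

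Values from a single spot tended to be far from 0. Each gene had a pair of adjacent spots, and 41 of 53 genes had both measured on all 4 arrays. Among the 192 values of the 48 genes, 10 came from 1 spot, and 7 of these lay beyond 1 log2 unit from 0 (70.0%). Of the 182 values from both spots 13 did (7.14%). The median distance from 0 was 2.61 for the first kind and 0.32 for the second. These values are not independent, since MRPL35 and MRPS35 gave several of the single-spot ones. Both genes were also far from 0 with both spots measured (MRPL35 at -2.75 and -4.69, MRPS35 at -3.28 and 1.52). Spot number and gene were therefore not told apart. Paired spots of the family differed by over 1 log2 unit in 11 of 45 pairs on array 1, in 0 of 49 on array 2, in 3 of 48 on array 3 and in 4 of 50 on array 4. The 17 genes that dropped out of the duplicate-spot analysis had SDs from 0.39 to 4.74 with a median of 0.90, and the 31 kept had SDs from 0.08 to 0.82 with a median of 0.26. The spread of the family was otherwise that of the array: the median SD was 0.39 for the 48 genes and 0.38 for all genes.

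**Figure D2:**
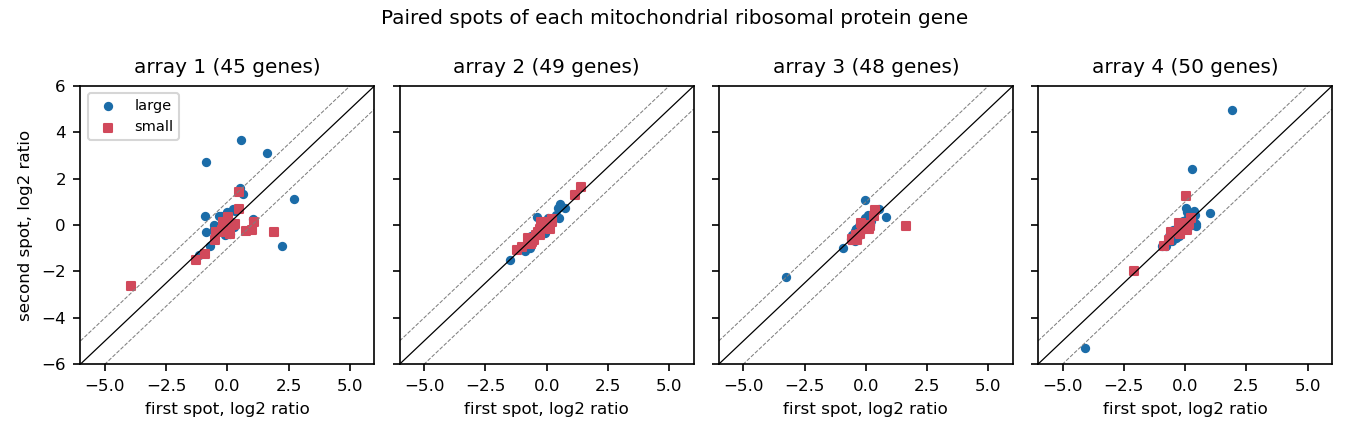
Log2 ratio of the second spot (y axis) against the first (x axis) for each mitochondrial ribosomal protein gene with both spots measured, one panel per array; the solid line is equality and the dashed lines mark 1 log2 unit. Array 1 has 11 of 45 pairs outside the dashed lines and array 2 has none of 49.

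Agreement between arrays ranged more widely across the 48 genes than across all genes. As a description over genes, which are not independent and share arrays and centring, Pearson's r between arrays ran from -0.49 (arrays 1 and 2) to 0.66 (arrays 3 and 4). Over 4481 genes it ran from 0.23 to 0.43. Spearman's rho over the 48 genes ran from 0.03 to 0.62. Without MRPL35 and MRPS35, chosen after their values were seen, r over 46 genes ran from -0.02 to 0.33, so those genes set both ends of the first range.

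With all genes on 4 arrays, the large and the small subunit did not differ in a direction that all arrays shared. The 31 large-subunit genes had a median of -0.13, and the 17 small-subunit genes one of 0.0001. The difference, large minus small, was -0.09, 0.11, -0.08 and -0.08 on arrays 1 to 4. Its sign was thus reversed on array 2, and its SD over arrays was 0.10. With duplicate spots it was -0.02, -0.0053, -0.13 and -0.23, the same sign on each array but near 0 on arrays 1 and 2. With duplicate spots and the length trend removed it was 0.06, 0.17, -0.03 and -0.14, of mixed sign. No p is given for this difference, because the members are a chosen list. In the large subunit 7 of 31 genes lay below 0 on 4 of 4 arrays and 4 above, and in the small subunit 4 of 17 below and 0 above. Over all genes 21.3% lay below and 20.4% above, so the lower counts were near the background in both subunits.

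Counterparts of bacterial proteins and proteins found only in mitochondria were also set side by side. The 20 large-subunit genes with bacterial counterparts had a median of -0.08, with 3 below 0 and 4 above 0 on every array. The 11 mitochondria-specific ones had a median of -0.13, with 4 below and 0 above. Over all genes 21.3% lay below 0 on every array and 20.4% above. They are also shorter, with a median span of 444 bp against 672 bp. In the small subunit the 12 genes with counterparts had a median of -0.06 and the 5 mitochondria-specific ones a median of 0.11.

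**Figure D3:**
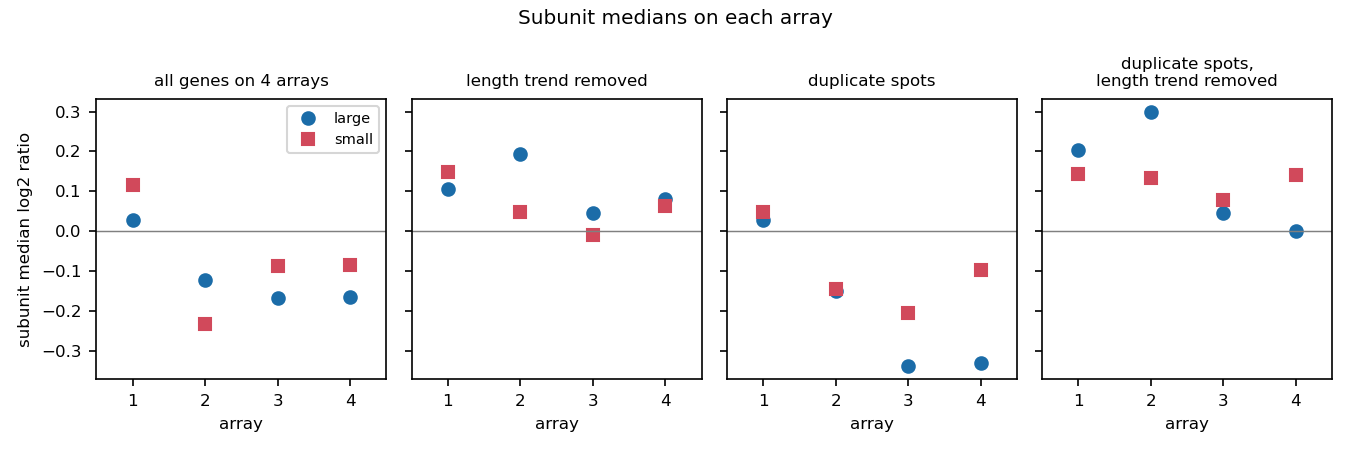
Median log2 ratio (y axis) of large-subunit genes (circles) and small-subunit genes (squares) on arrays 1 to 4 (x axis), in 4 forms of the analysis. With all genes on 4 arrays the large-subunit median is below the small on arrays 1, 3 and 4 and above it on array 2, and after removal of the length trend both medians lie near or above 0.

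Part of the order within the family went along with gene length. Spans, from the start to the stop codon in the R64 gene table with introns included, ran from 213 bp (MRPL39) to 1104 bp (MRPL35) among the 48 genes. Their median span was 628.5 bp, while that of all genes tested was 1249.5 bp. Across the 48 genes the rank correlation of mean ratio with span was 0.39, and it was 0.23 across 4476 genes. Within the large subunit it was 0.35 (31 genes) and within the small subunit 0.48 (17 genes). In the duplicate-spot analysis it was 0.57 over 31 genes. These describe genes that share the same arrays, and no p is given.

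Shorter genes lay lower in both subunits, and other genes up to 600 bp also lay lower than longer ones. Of all genes, whatever their span, 21.3% lay below 0 on 4 of 4 arrays and 20.4% above. No share by span over all genes is given for the counts that follow, so they are not read as particular to the family. Of the large-subunit genes, 17 spanned up to 600 bp and had a median of -0.14, with 7 below 0 on 4 of 4 arrays and 0 above. The 14 longer ones had a median of 0.22, with 0 below and 4 above. In the small subunit the 6 genes up to 600 bp had a median of -0.27, with 3 below 0 on 4 of 4 arrays and 0 above. The 11 longer ones had a median of 0.11, with 1 below and 0 above. The long gene below 0 on 4 of 4 arrays was MRPS9 (837 bp, -0.23 ± 0.26), which lay near 0 on arrays 1 and 2. MRPL37 (318 bp), RSM19 (276 bp), MRPL28 (444 bp), MRPL33 (261 bp) and MRPS16 (366 bp), also below 0 on each array, are short. MRPL39, the shortest with 213 bp, was an exception with 0.07, -0.15, -0.34 and -0.11 and a mean of -0.13 ± 0.17, and with the length trend removed its mean turned to 0.34.

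Compared with other genes of like span, the family lay above them in some classes and below them in others. Over 300 and up to 450 bp its 11 genes had a median of -0.22 and 280 other genes one of -0.28. From there to 600 bp the values were -0.14 for 9 genes and -0.23 for 294. Over 600 and up to 750 bp they were 0.16 for 8 genes and -0.10 for 344, and over 900 and up to 1200 bp 0.22 for 6 genes and 0.05 for 672. From 750 to 900 bp the family lay slightly below, at -0.03 for 11 genes against 0.02 for 307, and up to 300 bp the 3 genes at -0.47 were close to the -0.45 of 65 others. The other genes here leave out both kinds of ribosomal protein. With duplicate spots the family lay below others from 450 to 600 bp, at -0.35 for 7 genes against -0.26 for 204, and above them in the other classes. No set test was made of these differences.

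After a smooth trend with span was removed from each array, the family median was 0.11, beside -0.01 over 4476 genes, and 29 of the 48 means lay above 0. Then 4 genes lay below 0 on 4 of 4 arrays (21.7% of all genes did) and 9 above (18.5% of all genes), and none passed, where 0.737% of all genes did. The subunit medians became 0.09 (large) and 0.12 (small), a difference of -0.03. On arrays 1 to 4 the difference of the array medians was -0.04, 0.14, 0.05 and 0.02, of mixed sign and mostly opposite to -0.03. The direction of the family median therefore turned with this step, from slightly below the median of all genes to slightly above it.

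**Figure D4:**
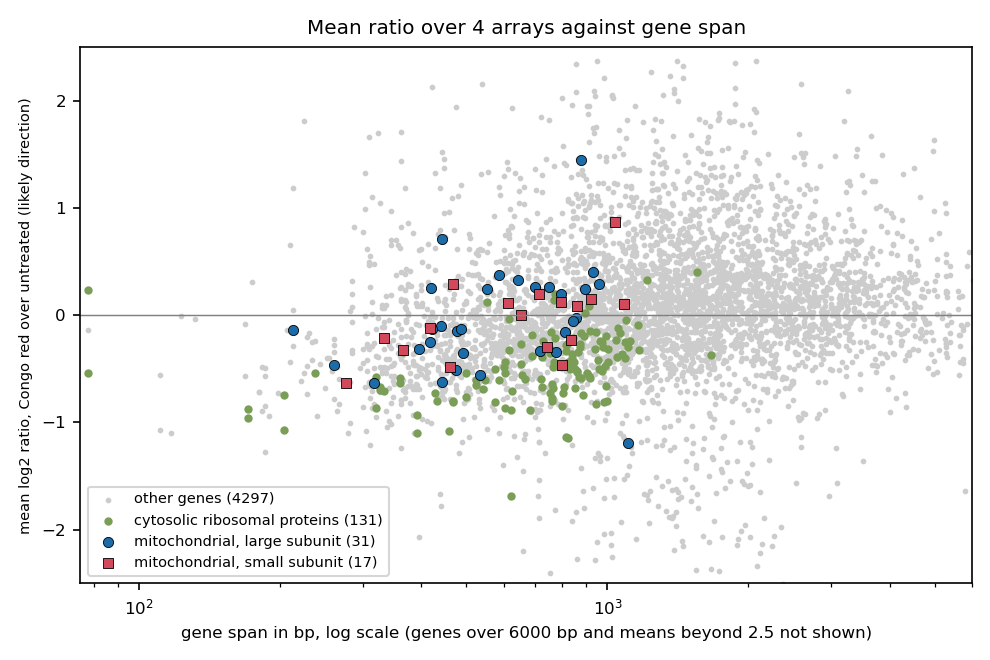
Mean log2 ratio over 4 arrays (y axis) against gene span in bp (x axis, log scale), for large-subunit genes (blue circles), small-subunit genes (red squares), cytosolic ribosomal protein genes (green) and all others (grey). Short mitochondrial ribosomal genes lie below 0 among other short genes, and cytosolic ribosomal protein genes lie lower at the same span.

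Cytosolic ribosomal protein genes, the most similar family by function, stood lower on the same arrays. Their median was -0.50 over 131 genes, with 101 below 0 on 4 of 4 arrays and 3 above, and their array medians ran from -0.50 to -0.49. The family medians of the mitochondrial genes were between -0.15 and 0.03 on the same arrays. At like span the cytosolic genes were lower in each class that held both kinds. Spans include introns, so genes of like span can differ in transcript length. The part of this in the gaps, or in the length trend removed below, was not tested. Up to 300 bp the medians were -0.74 for 7 cytosolic and -0.47 for 3 mitochondrial genes, the smallest gap. Over 300 and up to 450 bp they were -0.70 for 12 and -0.22 for 11, and from there to 600 bp -0.63 for 14 and -0.14 for 9. Over 600 and up to 750 bp they were -0.54 for 19 and 0.16 for 8 genes, the largest gap. From 750 to 900 bp, the class with most cytosolic genes, they were -0.44 for 43 and -0.03 for 11. From 900 to 1200 bp they were -0.32 for 33 and 0.22 for 6. With duplicate spots 66 of 130 cytosolic genes fell and 0 rose, where 4 of 31 mitochondrial genes fell and 0 rose. Over all genes 11.5% were called lower and 5.31% higher there. With the length trend removed there as well, 21 of 130 cytosolic genes were called lower and 1 higher, where 3.07% and 4.68% of all genes were. Without array 3 or array 4, 0 of all genes were called with duplicate spots, so the cytosolic calls also depend on the arrays used.

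**Figure D5:**
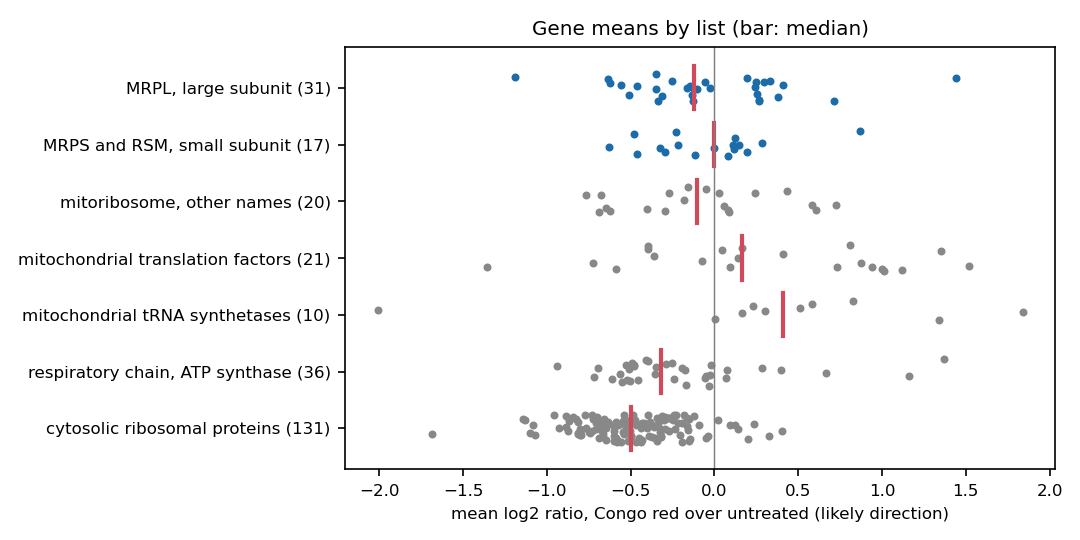
Mean log2 ratio over 4 arrays (x axis) of each gene with a value on all 4 arrays, by list (y axis, number of genes in brackets), with the list's median as a red bar; vertical scatter within a list carries no value. Both mitochondrial subunits centre near 0, and cytosolic ribosomal protein genes centre at -0.50.

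Other parts of the mitochondrial translation apparatus gave a mixed picture. For the lists from here on, the shares of all genes called with duplicate spots were 11.5% lower and 5.31% higher. With the length trend removed as well they were 3.07% and 4.68%. On 4 of 4 arrays 21.3% of all genes lay below 0 and 20.4% above. The calls with duplicate spots depend on the arrays used, since 0 of all genes were called without array 3 or array 4. Of 23 further mitochondrial ribosomal proteins with other names, 20 were measured on all 4 arrays, with a median of -0.11, 8 below 0 on 4 of 4 arrays and 1 above. With duplicate spots 3 of 14 fell and 0 rose: MRP2 (-0.76 ± 0.07, adjusted p = 0.0118, limma) and MRP17 (-0.69 ± 0.32, adjusted p = 0.0253), which have bacterial counterparts, and MRP1 (-0.63 ± 0.11, adjusted p = 0.0174). MRP1 was the one still called after removal of the length trend (-0.54, adjusted p = 0.0319). MRP1 and RSM26 are related to the same enzyme, manganese superoxide dismutase, and RSM26 did not pass (-0.46 ± 0.45).

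Factors of mitochondrial translation and ribosome assembly had a median of 0.17 over 21 of 29 genes, with 4 below 0 and 8 above 0 on 4 of 4 arrays. With duplicate spots 2 of 9 rose and 0 fell. These were MTG2, a GTPase of mitochondrial ribosome assembly (0.81 ± 0.57, adjusted p = 0.0388, limma), and MBA1, a membrane receptor of the mitochondrial ribosome (0.73 ± 0.55, adjusted p = 0.0463). With the length trend removed MBA1 stood at 0.86 and was still called (adjusted p = 0.0411, limma). MTG2 stood at 0.78, little changed in size, and was no longer called (adjusted p = 0.0609).

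Mitochondrial aminoacyl-tRNA synthetases had a median of 0.41 over 10 of 13 genes, with 1 below 0 and 5 above 0 on 4 of 4 arrays. Of 3 in the duplicate-spot analysis, 1 fell, MSR1, the arginyl-tRNA synthetase (-2.01 ± 1.45, adjusted p = 0.0276, limma), and 0 rose. With the length trend removed MSR1 stood at -2.06 and was still called (adjusted p = 0.0465, limma). Genes of the respiratory chain and ATP synthase, some of whose partner subunits the mitochondrial ribosome makes, had a median of -0.32 over 36 of 39 genes, with 17 below 0 and 4 above 0 on 4 of 4 arrays. With duplicate spots 11 of 29 fell and 0 rose, and after removal of the length trend 0 of 29 passed in either direction, with 5 at an unadjusted p under 0.05 (limma), where 30.9% of all genes were. Median spans of these lists differ widely, from 454.5 bp for the respiratory genes to 1729.5 bp for the synthetases, against 628.5 bp for the mitochondrial ribosomal genes, and the part of span in these differences was not tested.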

How the data were processed

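RNA of treated and untreated cells was compared on 4 arrays of 2 channels, which form 1 group. The authors deposited 1 log2 channel ratio for each spot. The scale was read from the values; scanning, filtering and normalization were steps not given in the sources used here. The top value, 16.61, was set to missing (none of the family's spots held it). Each array was centred on its median, and arrays 2 and 4, with treated RNA in channel 1, were multiplied by -1. Deposited medians were 0.43, -0.25, 0.30 and 0.64. Signal over background was not analysed, and the number of arrays limits the precision.

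Symbols came from the platform annotation, updated through the R64 gene table; the 53 members needed no update. Gene values, means over spots, entered limma 3.58.1 (R 4.3.3; intercept model by lmFit, then eBayes; Benjamini-Hochberg threshold 0.05), whose script was tested on simulated data. The length trend was a loess of each array's gene values on log2 span (span 0.5). RPP1, an RNase P subunit, was taken out of the cytosolic list. Named genes were the 6 lowest and 6 highest means of each subunit and all called genes, with others named for role, steadiness or length. The members, lists and the duplicate-spot analysis were chosen with earlier results of these data known. Alternatives covered centring, span, spots, arrays, runs of 400 spots, orientation and channel order.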

Additional observations from a re-analysis of the deposited data

Results flagged for a closer look

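For each of the 48 genes on 4 arrays, the gap between the highest or lowest array and its neighbour was compared with the whole range (critical ratio 0.829, which chance passes in about 1 in 20 groups). It was passed by 1 gene, MRPL19, a large-subunit gene with a bacterial counterpart. It gave 0.03 on array 2 (0.0262) and -0.19 to -0.22 on the other arrays, a gap of small size that stands out because the other 3 values are close together. The wide values of MRPL35 and MRPS35 were not marked, since their remaining arrays also spread.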

How the results depend on the processing

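Each ratio already pairs treated with untreated RNA on its own array. No further pairing between arrays was possible because the 4 arrays form 1 group. With all genes, the count of called members was 0 as reported and 0 without centring, with the length trend removed, with at least 3 arrays, with runs of 400 spots centred, with the top value kept, with channel order in the model and without each array. Of all genes, 45 were called lower and 48 higher without centring (of 4481). These were 22 and 11 of 4476 with the length trend removed and 160 and 54 of 4481 with runs centred. In the other settings just named 0 of all genes were called. Called members numbered 4 with duplicate spots (323 lower and 149 higher of 2804 genes). They numbered 1 with duplicate spots and the length trend removed (86 and 131 of 2801 genes). Leaving out arrays in the duplicate-spot analysis, an alternative added after the data were seen, gave 0 to 4. Genes below and above 0 on every array numbered 11 and 4; they were 2 and 1 without centring (where all genes also fell, from 956 and 912 to 423 and 520 of 4481), 4 and 9 with the length trend removed (973 and 830 of 4476 genes), 3 and 8 of 31 with duplicate spots and that trend removed (578 and 541 of 2801 genes), and 11 to 19 and 4 to 8 without single arrays. Arrays 1 and 3 alone gave 10 above, and arrays 2 and 4 alone 23 below and 10 above. A shared sign is easier to reach on fewer arrays, and no share over all genes is given here for these pairs. The pair counts are therefore not read as a shift of the family. Arrays 2 and 4 unturned gave 0 below (3.55% of all genes) and 4 above (8.33%, against 3.91% of all genes).

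The large-subunit median of -0.13 moved to 0.089 with the length trend removed, 0.10 with duplicate spots as well and 0.0011 with arrays 2 and 4 unturned, and ran from -0.19 to 0.0022 without single arrays. The small-subunit median moved to 0.20 with duplicate spots and the length trend removed and to -0.16 on arrays 2 and 4 alone, and ran from -0.14 to 0.01 without single arrays. Large minus small moved to 0.0075 with runs of 400 spots centred and 0.037 on arrays 2 and 4 alone, and ran from -0.14 to 0.012 without single arrays. The cause of these moves was not tested, beyond what each step removes.

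Signs of named genes turned for MRPL19 (0.080) and MRPL39 (0.34) with the length trend removed, for MRPL33 (0.025), MRPS16 (0.068), MRPL19 (0.17), MRPL31 (0.052) and MRPL39 (0.41) with duplicate spots and that trend removed, and for RSM10 (-0.014), MRPS5 (-0.042) and MRPS18 (-0.074) with runs centred. Without single arrays MRPL22 ran from -0.25 to 0.73, RSM25 from -0.16 to 0.30, MRPS5 from -0.0049 to 0.31, MRPL32 from -0.38 to 0.61, MRPS18 from -0.056 to 0.036, MRPS8 from -0.022 to 0.65, MRPL44 from -0.092 to 1.11 and MRPL13 from -0.19 to 0.90. None of these genes was called with all 4 arrays. Among the 33 genes followed, 24 by rule and 9 named after their values were seen, no other sign turned under these alternatives.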
